A study of Mus musculus with 15 samples.

Results

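Dopamine neurons of the mouse ventral midbrain were followed from embryonic day 14 (E14) to embryonic day 16 (E16). The embryos were labelled Pitx3-GFP, a reporter line that marks dopamine neurons with green fluorescent protein (GFP) through Pitx3, a transcription factor of these cells, and GFP+ cells were purified by fluorescence-activated cell sorting (FACS). The comparison holds 6 of the 15 libraries of the series, 3 of E14 and 3 of E16 from a time series that also has 3 libraries of the day of birth (P0), and its members are all 10781 genes of the time series gene table and the 1630 of 7528 circular RNAs (circRNAs) that averaged 2 or more normalized reads over the 9 time series libraries. Another 6 libraries, GFP+ and GFP- cells of Pitx3-GFP embryos at E14, were sorted separately. All groups share the genotype and the tissue, and all groups of the time series are the GFP+ fraction. The labels do not say whether the reporter replaces a copy of Pitx3, and midbrains came from 3 litters without a statement that each replicate had its own. The p-values therefore refer to the spread of these libraries, part of which may be technical.

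Midbrain dopamine neurons are born from floor plate progenitors under Wnt and hedgehog signals and are specified by factors such as Foxa2, Lmx1a, Lmx1b, En1, Nr4a2 and Pitx3. They make dopamine with tyrosine hydroxylase (Th) and aromatic amino acid decarboxylase (Ddc), load it into vesicles with Slc18a2 and recapture it with Slc6a3. In late embryonic life they migrate to their final positions, send axons to the forebrain and begin to form synapses. A circRNA is a closed loop made by back-splicing of an exon of its host gene, is read across the back-splice junction and decays slowly.

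The 6 libraries held 17910017 to 28200930 reads over the genes of the table and 22231 to 33061 back-splice reads. The gene table has no gene with a mean under 107 normalized reads, so low genes were not analysed here. On log2 values, libraries of 1 age correlated across genes at 0.985 to 0.996 and libraries of different ages at 0.962 to 0.979, and E14, E16 and P0 fell into 3 separate clusters on the first principal component (67.3% of the variance). All 12 listed dopamine neuron markers were in the table, with 2 higher and 7 lower at E16 and Aldh1a1 among the higher, summing to 124611 to 133006 normalized reads at E14 and 182683 to 191454 at E16. Without Aldh1a1 the other 11 summed to 101744 to 113323 at E14 and 94719 to 104285 at E16. Of the defining markers of other cells, 3 of 16 astrocyte, 4 of 14 oligodendrocyte and 2 of 16 microglia genes were in the table. So were 2 of 20 endothelial and pericyte, 5 of 20 GABAergic and 2 of 21 other neuronal genes, but 0 of 10 erythroid genes. Lmx1b, 1 of the 2 other neuronal genes, is also a listed dopamine neuron marker. Gfap, Aqp4, Olig2, Csf1r, Cx3cr1, Pecam1 and Hbb-bs were among the markers outside the table. The 2 microglia genes summed to 537 to 550 at E14 and 913 to 1062 at E16. The 5 GABAergic genes, some of which dopamine neurons also express, summed to 5891 to 6981 and 10248 to 10571, and without Calb2 to 4234 to 4982 and 6472 to 6855. The 3 astrocyte genes summed to 8347 to 9676 and 7864 to 8650, within which Clu, a secreted chaperone, rose by a log2 fold change of 1.33 (SE 0.17). At E14 Clu was higher in GFP- cells of the separate sort (log2 difference of GFP+ over GFP- -3.08). The summed level of 4 Y-linked genes (Ddx3y, Eif2s3y, Kdm5d and Uty) was 7224 to 8761 at E14 and 3399 to 4935 at E16, and 6.21% of the genes that rose lie on the X chromosome against 3.73% of all genes tested. The X-linked RNA Xist ranged from 4668 to 8643 at E14 and from 7417 to 14224 at E16. Its log2 fold change was 0.76 (SE 0.24), with overlapping libraries and a call lost in 4 alternatives. The part of these markers and of the sex-linked genes in the results below was not tested. In bulk samples, fewer cells of a type and less RNA per cell cannot be told apart.

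From E14 to E16, 1642 genes (15.2% of 10781) were higher and 1915 (17.8%) were lower at an adjusted p under 0.05, in a limma-trend fit of log2(normalized reads + 1), adjusted by Benjamini-Hochberg over all genes. The changes were uneven in size. A difference of at least 2-fold was reached by 222 of the genes that rose (2.06% of all) and by 46 of those that fell (0.427%). The 3 E16 libraries lay above all 3 E14 libraries for 20.3% of genes and below all of them for 26.1%, and the median log2 fold change of all genes was -0.04. Every gene count below is to be read against these shares.

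**Figure D1:**
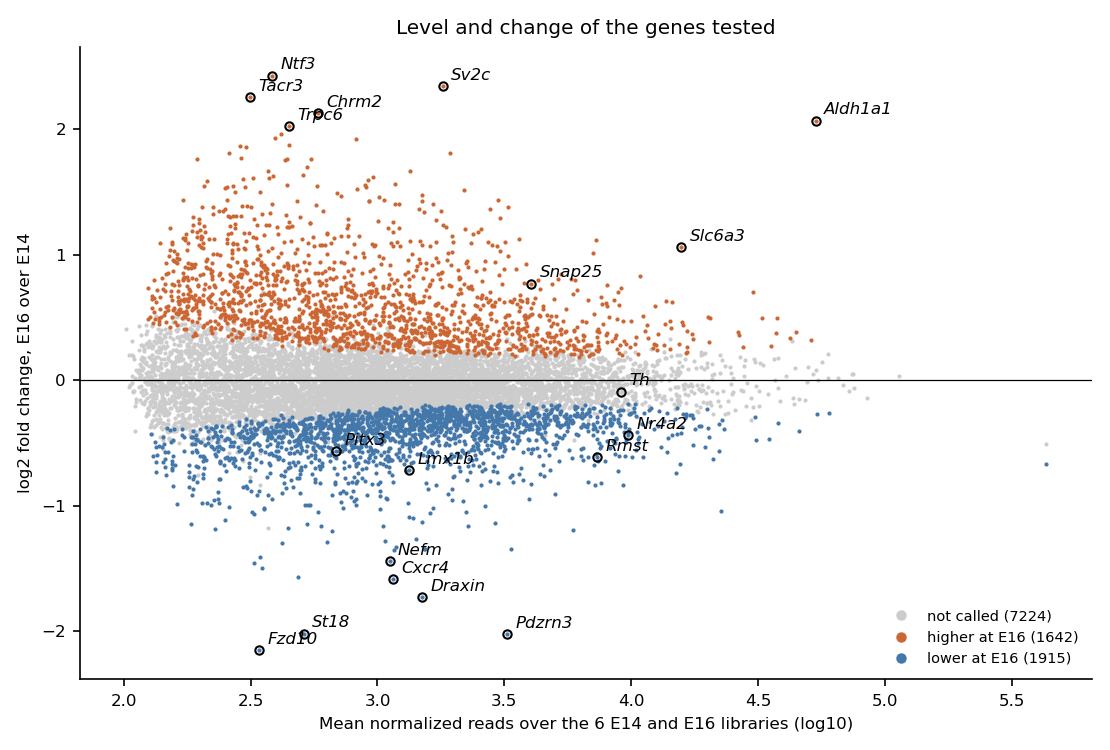
Each point is 1 of 10781 genes, by its mean over the 6 E14 and E16 libraries (log10 normalized reads) and its log2 fold change of E16 over E14. The 1642 genes that rose and the 1915 that fell are coloured, and Aldh1a1 stands apart as a highly read gene with a log2 fold change of 2.07.

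The genes of dopamine handling did not move together. The transporter Slc6a3 and the oxidising enzymes Maoa and Aldh1a1 rose, the decarboxylase Ddc and the vesicular transporter Slc18a2 fell, and Th did not pass the test in the main fit. Of 15 tested members of 18 listed, 8 rose and 3 fell, with a median log2 fold change of 0.35 against -0.04 for all genes. The stretch around the start site is printed for those on which this contrast turns, 150 bases before to 20 bases after the RefSeq start (GRCm38.p6), with capitals for a cyclic AMP response element (CRE, TGACGTCA, its own reverse complement) or an NBRE (AAAGGTCA or its reverse complement TGACCTTT), the motif that NR4A receptors such as Nr4a2 bind as monomers. Ddc and Aldh1a1 have a pair of RefSeq starts each.
Th, chr7:142899976-142900145, minus strand: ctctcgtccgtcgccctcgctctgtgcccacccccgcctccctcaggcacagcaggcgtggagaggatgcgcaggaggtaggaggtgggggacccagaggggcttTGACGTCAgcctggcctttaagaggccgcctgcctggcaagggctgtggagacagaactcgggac
Slc18a2, chr19:59260728-59260897, plus strand: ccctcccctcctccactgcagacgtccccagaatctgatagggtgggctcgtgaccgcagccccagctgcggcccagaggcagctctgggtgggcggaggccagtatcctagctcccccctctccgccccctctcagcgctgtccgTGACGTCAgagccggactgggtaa
Ddc, upstream start, chr11:11898125-11898294, minus strand: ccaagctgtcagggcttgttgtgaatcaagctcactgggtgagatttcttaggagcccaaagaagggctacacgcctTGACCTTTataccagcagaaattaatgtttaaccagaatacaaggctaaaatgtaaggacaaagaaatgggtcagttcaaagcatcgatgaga
Ddc, downstream start, chr11:11890389-11890558, minus strand: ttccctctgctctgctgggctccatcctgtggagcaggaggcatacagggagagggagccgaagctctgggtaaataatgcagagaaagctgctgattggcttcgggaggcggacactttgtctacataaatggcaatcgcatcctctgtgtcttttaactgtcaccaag
Slc6a3, chr13:73536597-73536766, plus strand: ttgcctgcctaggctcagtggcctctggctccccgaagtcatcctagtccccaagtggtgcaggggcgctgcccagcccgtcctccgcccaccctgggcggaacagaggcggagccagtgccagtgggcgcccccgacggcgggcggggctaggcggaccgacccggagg
Maoa, chrX:16619548-16619717, plus strand: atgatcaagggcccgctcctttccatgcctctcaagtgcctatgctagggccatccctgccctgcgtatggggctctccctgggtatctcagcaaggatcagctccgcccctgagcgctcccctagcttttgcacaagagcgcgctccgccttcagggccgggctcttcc
Aldh1a1, downstream start, chr19:20601818-20601987, plus strand: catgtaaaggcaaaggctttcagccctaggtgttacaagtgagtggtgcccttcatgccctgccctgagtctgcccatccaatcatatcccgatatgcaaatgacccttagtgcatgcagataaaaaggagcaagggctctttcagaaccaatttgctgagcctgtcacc
Over the 300-base windows of the RefSeq table, a CRE was found in 588 of 32851 promoters (1.79%) and an NBRE in 495 (1.51%). Among the 17 promoters of the 15 dopamine handling genes with an entry, the CRE was in those of Th and Slc18a2, first bases at -45 and -4, and the NBRE in that of the upstream Ddc start, first base at -73. A match is a description of the letters and not a binding site.

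Th (chromosome 7, 142892752 to 142931128, GENCODE M21 on GRCm38) stood at 8989, 9696 and 9457 normalized reads in E14 replicates 1, 2 and 3, and at 7446, 10904 and 8431 in those of E16. The E16 libraries spread on both sides of the E14 libraries, and the log2 fold change was -0.09 (SE 0.12, adjusted p = 0.612). Ddc stood at 34990, 40848 and 45801 at E14 and at 29415, 28838 and 29098 at E16. No E16 library reached the lowest of E14, and Ddc fell by 0.47 on the log2 scale (SE 0.10, adjusted p = 0.00298). Slc18a2, the vesicular monoamine transporter, stood at 9947, 10549 and 11147 at E14 and at 8319, 8593 and 7983 at E16. It fell by 0.35 (SE 0.09, adjusted p = 0.00754), again with no overlap. Gch1, which starts synthesis of the Th cofactor tetrahydrobiopterin, had a log2 change of 0.02 (SE 0.14, adjusted p = 0.911).

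Slc6a3, the dopamine transporter (chromosome 13, 73536747 to 73578672), stood at 10062, 11101 and 9399 normalized reads at E14 and at 18545, 23360 and 22089 at E16. The groups lay far apart, with a log2 change of 1.06 (SE 0.19, adjusted p = 0.000722). Aldh1a1, an aldehyde dehydrogenase that makes retinoic acid and marks ventral dopamine neurons (chromosome 19, 20492715 to 20643465), went from 22867, 21984 and 16975 to 89879, 78397 and 89565 (log2 fold change 2.07, SE 0.12, adjusted p = 5.14e-07). Maoa, which oxidises monoamines, went from 1470, 1404 and 1539 to 3458, 3352 and 3091 (log2 fold change 1.16, SE 0.09, adjusted p = 1.65e-06). In each of these genes every E16 library was above every E14 library. The dopamine receptor gene Drd2 rose by 0.79 (SE 0.17), and the cofactor enzymes Pcbd1, Spr and Qdpr rose by 0.92 (SE 0.18), 0.64 (SE 0.12) and 0.44 (SE 0.16).

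Genes that mark subsets of dopamine neurons, with the nicotinic receptor subunits, mostly rose. Of 20 tested members of 26, 12 rose and 1 fell (2 fell without E14 replicate 1 or E16 replicate 2), with a median log2 fold change of 0.51. Tacr3, the neurokinin 3 receptor, went from 148, 104 and 79.0 normalized reads at E14 to 484, 570 and 495 at E16 (log2 fold change 2.26, SE 0.19, adjusted p = 2.01e-06). No E14 library reached the level of any E16 library. Neurod6, a transcription factor of ventral tegmental neurons, rose by 1.70 (SE 0.13), the secreted factor Ndnf by 1.67 (SE 0.18), the nicotinic subunit Chrnb3 by 1.46 (SE 0.13), and the calcium-binding proteins Calb1 and Calb2 by 1.07 (SE 0.09) and 1.08 (SE 0.10). Calb2 is also on the list of GABAergic markers, and at E14 it was higher in GFP- cells of the separate sort (log2 difference of GFP+ over GFP- -0.51, adjusted p = 0.0281 by limma). Kcnj6 (Girk2), a potassium channel used to mark the substantia nigra, rose by 0.84 (SE 0.12). Cck, a neuropeptide, fell by 0.73 (SE 0.16). Chrna6, the nicotinic subunit most typical of these cells, had a log2 change of 0.12 (SE 0.07, adjusted p = 0.205), although its E16 libraries (10807 to 11723) all lay above those of E14 (10031 to 10721).

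The transcription factors that specify midbrain dopamine neurons fell. Of 20 tested members of 25, 14 fell and 0 rose, with a median log2 fold change of -0.47, and the E16 libraries lay below all E14 libraries for 18 of them. Foxa2, a forkhead factor of the floor plate, went from 3095, 3394 and 3385 normalized reads to 1795, 2121 and 2144 (log2 fold change -0.71, SE 0.10, adjusted p = 0.000121). Lmx1b, a LIM homeobox factor, went from 1739, 1642 and 1563 to 864, 1054 and 1114, a log2 fold change of -0.71 (SE 0.10), and its relative Lmx1a fell by 0.53 (SE 0.07). Nr4a2 (Nurr1; chromosome 2, 57106830 to 57124003) stood at 11218, 11276 and 11098 at E14 and at 8083, 7722 and 9046 at E16. It fell by 0.44 (SE 0.08, adjusted p = 0.000969). Pitx3 (chromosome 19, 46135685 to 46148326), the gene of the reporter on which cells were sorted, stood at 759, 877 and 818 at E14 and at 469, 569 and 630 at E16, and fell by 0.56 (SE 0.11, adjusted p = 0.00189). En1 and En2, homeobox genes that keep midbrain identity, fell by 0.29 (SE 0.09) and 0.49 (SE 0.09). The largest falls on the list were those of Ebf2, a helix-loop-helix factor of young neurons (1.14, SE 0.13), Nr2f1, an orphan nuclear receptor (0.98, SE 0.20), and Tcf12, an E protein (0.83, SE 0.14). Otx2, which marks the ventral tegmental part of the population, had a log2 change of -0.18 (SE 0.13, adjusted p = 0.314).

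**Figure D2:**
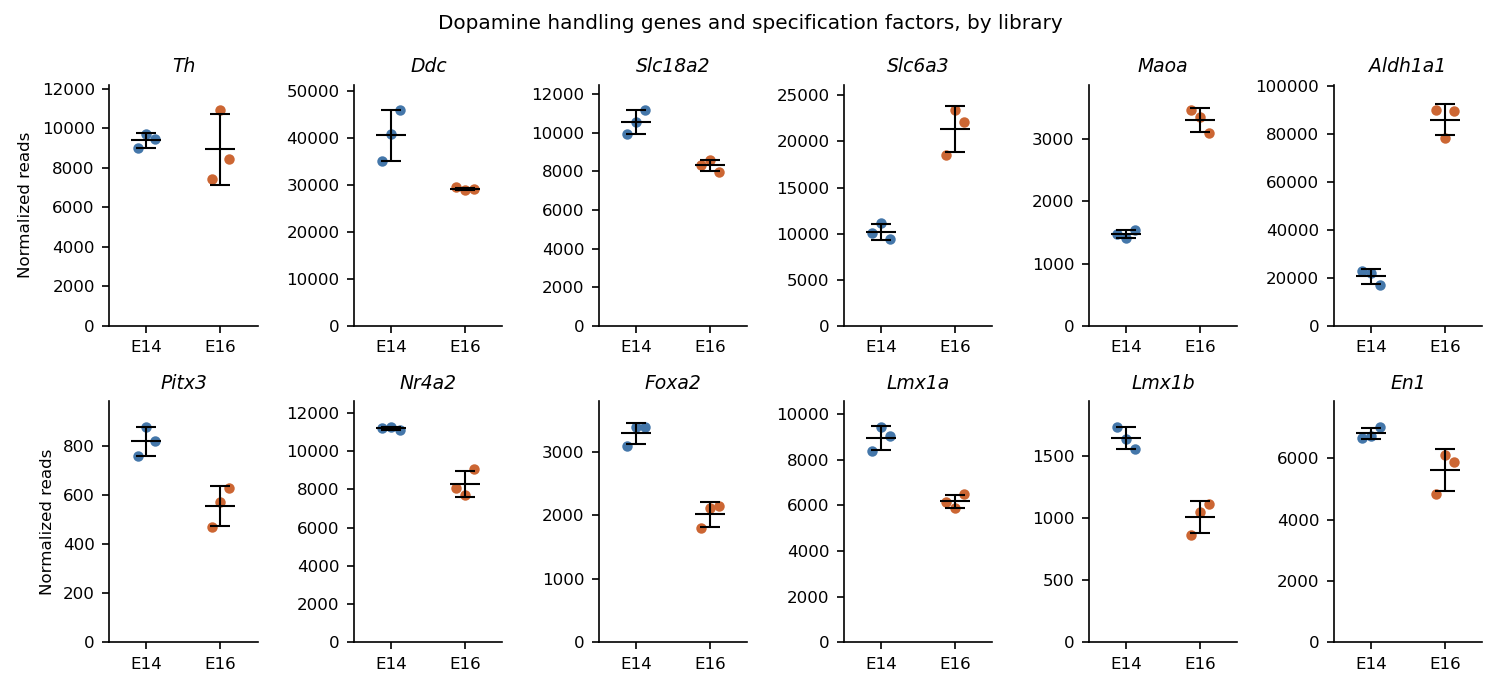
Normalized reads of 12 genes in each E14 and E16 library (points, replicates 1 to 3 from left to right), with the mean and SD (n = 3); each axis starts at 0 and has its own scale. Slc6a3, Maoa and Aldh1a1 lie higher at E16 without overlap, Th overlaps, and Ddc, Slc18a2 and the 6 transcription factors lie lower.

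Among neurotrophic ligands and receptors, 7 of 16 tested members rose and 2 fell. Ntf3, which encodes neurotrophin 3 (chromosome 6, 126101412 to 126166910), had the largest rise of all genes that met the naming rule: it went from 167, 140 and 71.8 normalized reads to 659, 664 and 609 (log2 fold change 2.43, SE 0.24, adjusted p = 7.8e-06). Bdnf, a related neurotrophin, rose by 0.75 (SE 0.15), Igf1 by 1.60 (SE 0.14), Fgf20, a growth factor enriched in dopamine neurons, by 1.10 (SE 0.22), and the receptor Fgfr2 by 1.15 (SE 0.09). The receptors of the GDNF family moved apart. Gfra1, which binds GDNF, went from 8894, 10410 and 9836 to 5156, 5742 and 5614 and fell by 0.82 (SE 0.08, adjusted p = 7.66e-06), whereas Gfra2, which binds neurturin, rose by 0.55 (SE 0.10). Their shared signalling partner Ret had a log2 change of -0.02 (SE 0.08, adjusted p = 0.866). Igf1r, the receptor for Igf1, fell by 0.61 (SE 0.08).

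Genes of the synapse rose broadly. Of 44 tested genes of synaptic vesicles and release, 27 rose and 2 fell, with a median log2 fold change of 0.41. Sv2c, a vesicle protein of basal ganglia neurons, went from 775, 581 and 462 normalized reads to 2797, 3158 and 3085 (log2 fold change 2.34, SE 0.19, adjusted p = 1.65e-06). Snap25, a SNARE protein of vesicle fusion, went from 3043, 3283 and 2655 to 5322, 4806 and 5149, a log2 fold change of 0.77 (SE 0.10). Both genes had E16 libraries that lay wholly above those of E14. The calcium sensor Syt1 rose by 0.77 (SE 0.14), the vesicle protein Syp by 0.64 (SE 0.08), and the complexins Cplx1 and Cplx2 by 0.86 (SE 0.19) and 0.93 (SE 0.17). The members that fell were Unc13b, a priming factor, by 0.29 (SE 0.07), and Rab3c, a vesicle GTPase, by 0.22 (SE 0.07). Rab3c lost its call in 7 of the alternatives, without E14 replicate 1, 2 or 3 and without E16 replicate 2 or 3 among them, with an adjusted p of up to 0.108.

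Receptors for glutamate, GABA and glycine mostly rose: of 34 tested subunits 25 rose and 1 fell, with a median of 0.70. The metabotropic glutamate receptor Grm5 went from 1840, 1742 and 1296 normalized reads to 4293, 4520 and 4254 (log2 fold change 1.44, SE 0.11, adjusted p = 1.28e-06). Of the GABA-A subunits, Gabrg3 rose by 1.55 (SE 0.24), Gabrb1 by 1.47 (SE 0.13) and Gabra4 by 1.28 (SE 0.13). The NMDA receptor subunit Grin2b rose by 0.51 (SE 0.08). The kainate receptor Grik3 was the member that fell, by 0.50 (SE 0.11). At E14, 19 of the 34 subunits were higher in GFP- than in GFP+ cells of the separate sort and 5 were higher in GFP+ cells, against 12.6% and 16.8% of all genes in both tables.

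Of 59 tested sodium, potassium, calcium and cation channel genes, 24 rose, 3 fell and 32 were not called, with a median of 0.18. Trpc6, a cation channel gated by diacylglycerol, went from 186, 174 and 167 normalized reads to 742, 744 and 665 (log2 fold change 2.02, SE 0.14, adjusted p = 1.02e-06). Its relative Trpc5 rose by 1.34 (SE 0.14), Trpm3 by 1.09 (SE 0.11), the fast potassium channel Kcnc2 by 1.22 (SE 0.12) and the A-type channel Kcnd2 by 0.82 (SE 0.09). The leak channel Kcnk9 went from 9354, 9429 and 9007 to 5002, 5453 and 5111 and fell by 0.84 (SE 0.14). The count of 3 channels that fell dropped to 1 without E14 replicate 2 or without E16 replicate 1. Chrm2, a muscarinic acetylcholine receptor that is on none of the lists, rose by 2.13 (SE 0.24), from 284, 259 and 132 to 905, 868 and 1043. At E14 it was higher in GFP- cells of the separate sort (log2 difference of GFP+ over GFP- -1.27).

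Adhesion molecules changed more often upward than downward, with many not called. Of 53 tested genes of synaptic adhesion and scaffolds, 24 rose and 5 fell (median 0.25), and of 69 cadherins and protocadherins, 33 rose and 3 fell (median 0.30; 5 fell without E16 replicate 1). At E14 in the separate sort, 20 of the 53 were higher in GFP- and 13 in GFP+ cells, against 12.6% and 16.8% of all genes. For the 69 cadherins and protocadherins these counts were 9 and 24. Among the contactins, Cntn1 rose by 1.02 (SE 0.11), Cntn4 by 1.08 (SE 0.17) and Cntn6 by 1.09 (SE 0.16). In the sort, Cntn4 and Cntn6 were higher in GFP- cells (log2 difference of GFP+ over GFP- -1.77 and -1.49), and Cntn1 was not called. Pcdh19, a delta protocadherin, went from 888, 810 and 729 normalized reads to 2269, 2193 and 2069 (log2 fold change 1.43, SE 0.08, adjusted p = 5.14e-07). Pcdh17 rose by 1.21 (SE 0.11) and Cdh8 by 1.12 (SE 0.13). Pcdhgc3, of the gamma cluster, moved the other way, from 459, 493 and 544 to 174, 181 and 209, a log2 fold change of -1.40 (SE 0.14). Clustered protocadherins share 3' exons, so their single values are uncertain. Tenm4, a teneurin, fell by 0.88 (SE 0.14), and Cdh2 (N-cadherin) by 0.31 (SE 0.07).

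**Figure D3:**
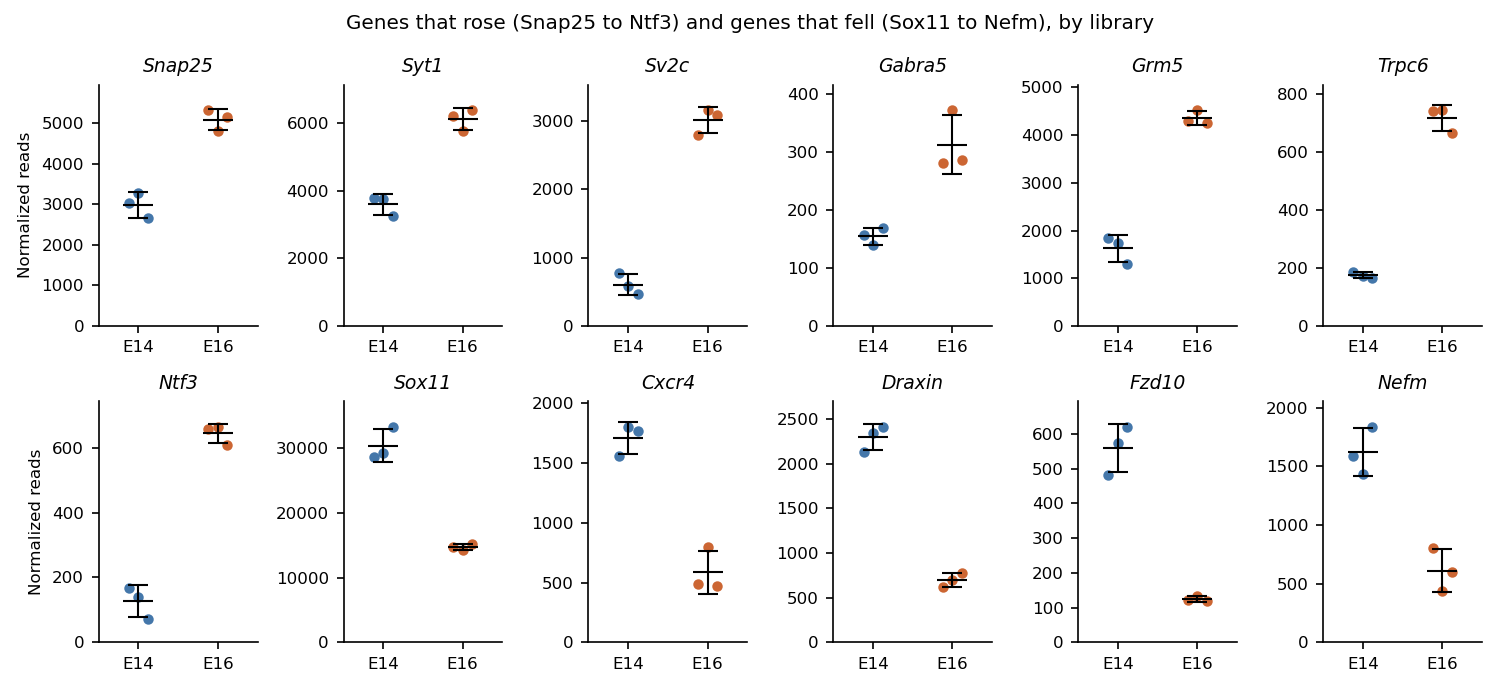
Normalized reads of 12 genes in each E14 and E16 library (points, replicates 1 to 3 from left to right), with the mean and SD (n = 3); each axis starts at 0 and has its own scale. The E14 and E16 libraries do not overlap for any of them: Snap25 to Ntf3 lie higher at E16, Sox11 to Nefm lower.

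Axon guidance genes changed in both directions, with 8 of 44 tested members higher and 17 lower (median -0.18). Draxin, a secreted repellent, went from 2135, 2343 and 2413 normalized reads to 616, 695 and 777 (log2 fold change -1.73, SE 0.16, adjusted p = 5.15e-06). All E16 libraries lay below all E14 libraries. The transmembrane semaphorin Sema5b fell by 1.16 (SE 0.17), the plexin Plxnb1 by 1.01 (SE 0.10) and the Eph receptor Ephb3 by 0.98 (SE 0.21). Against these, the netrin receptor Unc5c rose by 1.41 (SE 0.09), from 1057, 881 and 803 to 2574, 2388 and 2263, and the Eph receptor Epha6 by 1.35 (SE 0.12). The Slit receptors parted, with Robo2 higher by 0.51 (SE 0.11) and Robo1 lower by 0.33 (SE 0.07). Dcc, the attractive netrin receptor, had a log2 change of 0.07 (SE 0.10, adjusted p = 0.638).

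Of 26 tested genes of neuronal migration, 8 fell and 3 rose. The count of 8 became 5 without E14 replicate 2 and 4 without E14 replicate 3. Cxcr4, the receptor for the chemokine Cxcl12, went from 1556, 1804 and 1770 normalized reads to 486, 796 and 475 (log2 fold change -1.58, SE 0.27, adjusted p = 0.000506). The GTPase Rnd3 fell by 0.60 (SE 0.09) and the semaphorin receptor Nrp2 by 0.47 (SE 0.09). Reln, which encodes the secreted guide Reelin, went from 3245, 2895 and 2998 to 2443, 2176 and 2376 and fell by 0.39 (SE 0.13, adjusted p = 0.0339). Dab1, which relays the Reelin signal, fell by 0.39 (SE 0.11), a call lost without E14 replicate 3 or E16 replicate 3 (adjusted p up to 0.0696). Astn2, an adhesion protein of glia-guided migration, rose by 0.51 (SE 0.12). Dcx, a microtubule protein of migrating neurons, had a log2 change of -0.16 (SE 0.07, adjusted p = 0.107).

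Genes of young neurons changed in both directions, and most were not called. Sox11, a factor of newborn neurons, went from 28566, 29314 and 33297 normalized reads to 14685, 14348 and 15156 (log2 fold change -1.04, SE 0.08, adjusted p = 1.28e-06). Nhlh2 fell by 1.16 (SE 0.18), the surface glycoprotein Cd24a by 0.53 (SE 0.08), Insm1 by 0.51 (SE 0.13) and Sox4 by 0.41 (SE 0.13). Gap43, a growth cone protein, rose by 0.50 (SE 0.09) and Stmn4, a tubulin-binding protein, by 0.66 (SE 0.09). Of the 29 genes of this list 4 rose and 7 fell, and the 4 became 2 without E14 replicate 1 or 2. Of 25 neurofilament, axonal scaffold and motor genes 5 rose and 6 fell, and the 5 became 3 without E14 replicate 2. The neurofilament gene Nefm went from 1588, 1433 and 1836 to 801, 437 and 596, a log2 fold change of -1.44 (SE 0.17), and Nefl fell by 0.67 (SE 0.12), while the microtubule-associated protein gene Map1a rose by 0.49 (SE 0.11).

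Wnt and hedgehog pathway genes fell, 12 of 19 tested and 0 in the other direction (1 without E16 replicate 1), with a median of -0.36. Fzd10, a Wnt receptor (chromosome 5, 128600844 to 128604093), went from 483, 574 and 620 normalized reads to 121, 133 and 120 (log2 fold change -2.15, SE 0.25, adjusted p = 2.73e-05), the largest fall among the named genes. Fzd1 and Fzd3 fell by 1.19 (SE 0.20) and 0.61 (SE 0.07). The ligand Wnt5a, which acts on dopamine precursors, went from 6223, 7117 and 6963 to 4422, 4526 and 4834 and fell by 0.56 (SE 0.09, adjusted p = 0.000415).

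Genes of cell division and cell cycle exit were few in the table. Of 14 tested division genes 5 fell and 1, Cenpe, rose (a call lost without E14 replicate 3 or E16 replicate 1 or 3), and of 15 genes of cycle exit 6 fell and 0 rose (1 without E16 replicate 1). Cdkn1c, a cyclin-dependent kinase inhibitor, went from 4092, 4537 and 5870 normalized reads to 1854, 1957 and 1849, a log2 fold change of -1.34 (SE 0.17), and the replication helicase subunit Mcm7 fell by 0.81 (SE 0.12). Of 23 replication-dependent histone genes 6 fell and 0 rose. The 6 became 3 without E16 replicate 1, and the 0 became 1 without E14 replicate 1 or 2 or E16 replicate 2. At E14 in the separate sort, 13 of the 14 division genes and 18 of the 23 histone genes were higher in GFP- cells and 0 were higher in GFP+ cells, against 12.6% and 16.8% of all genes.

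Chromatin regulators mostly fell. Of 47 tested, 27 fell and 5 rose, with a median of -0.29, and the E16 libraries lay below all E14 libraries for 31. Dpf3, a subunit of neuronal BAF remodelling complexes, went from 2027, 2181 and 2362 normalized reads to 768, 879 and 944, a log2 fold change of -1.34 (SE 0.15). Sinhcaf, of the Sin3 deacetylase complex, fell by 1.34 (SE 0.14), the corepressor Rcor2 by 1.02 (SE 0.12), the BAF subunit Actl6a, typical of progenitors, by 0.88 (SE 0.10), and the Polycomb methyltransferase Ezh2 by 0.72 (SE 0.13). Hdac9, a class II deacetylase, moved against the list, from 278, 267 and 205 to 891, 771 and 871 (log2 fold change 1.76, SE 0.13, adjusted p = 1.28e-06). The 5 genes that rose became 3 without E14 replicate 1 or 3 and 2 without E14 replicate 2 or E16 replicate 3. Of 319 Zfp zinc finger genes 74 fell, 15 rose and 230 were not called, with a median of -0.12, and the 74 became 49 without E14 replicate 2. Of 41 splicing and RNA editing regulators 13 fell and 3 rose. Ptbp1, a repressor of neuronal exons, fell by 0.56 (SE 0.14), and Rbfox3 (NeuN) had a log2 change of 0.42 (SE 0.12, adjusted p = 0.0125), which became an adjusted p of 0.0522 without E14 replicate 3.

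Glycolytic and hypoxia-linked genes rose, 14 of 24 tested against 2 that fell (1 without E14 replicate 2 or 3 or E16 replicate 1 or 2), with a median of 0.31. Ldha, lactate dehydrogenase A, went from 1666, 1752 and 1766 normalized reads to 3541, 3763 and 3803 (log2 fold change 1.10, SE 0.10, adjusted p = 5.58e-06). The neuronal enolase Eno2 rose by 1.15 (SE 0.12), the neuronal glucose transporter Slc2a3 by 0.98 (SE 0.10) and the aldolase Aldoa by 0.80 (SE 0.11). Ndrg1 rose by 1.77 (SE 0.25), while the hypoxia factor Hif1a fell by 0.37 (SE 0.08). At E14 in the separate sort, 9 of the 24 were higher in GFP- and 2 in GFP+ cells, against 12.6% and 16.8% of all genes. Genes of the housekeeping machinery changed rarely in the main fit. Of 81 cytosolic ribosomal protein genes 2 rose and 2 fell. Of 77 nuclear genes of the respiratory chain and ATP synthase 4 rose and 0 fell. Of 12 mitochondrially encoded genes none was called, with mt-Co1 at a log2 fold change of -0.09 (SE 0.15). The 4 respiratory chain genes became 0 without E14 replicate 1 or 2 and 2 without E16 replicate 3. Among cytosolic ribosomal protein genes, the 2 that rose became 0 without E14 replicate 1 or E16 replicate 2 or 3 and 1 without E14 replicate 2 or 3. The 2 that fell became 5, 6 and 4 without E14 replicate 1, E16 replicate 1 and E16 replicate 3, and 1 without E14 replicate 3, and with a replicate block 7 fell and 1 rose. Without E16 replicate 1, 2 or 3, 1 mitochondrially encoded gene fell. Of 39 proteasome genes 2 rose and 1 fell, of 76 mitochondrial ribosomal protein genes 0 rose and 2 fell, and of 27 cholesterol genes 2 rose and 2 fell. For the mitochondrial ribosome, 2 rose without E16 replicate 1 or 2, and 1 fell without E14 replicate 1 or 3 or E16 replicate 2. The cholesterol genes that rose became 1 without E14 replicate 1 or 2 or E16 replicate 1 or 3. Those that fell became 0 without E14 replicate 2 or E16 replicate 1 and 1 without E14 replicate 1 or 3 or E16 replicate 3. Array quality weights, which called more genes in both directions, moved the housekeeping counts most. With them 37 respiratory chain genes rose and 0 fell, and 19 mitochondrial ribosomal protein genes rose and 6 fell. Cytosolic ribosomal protein genes gave 4 higher and 13 lower, and proteasome genes 8 higher and 1 lower.

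**Figure D4:**
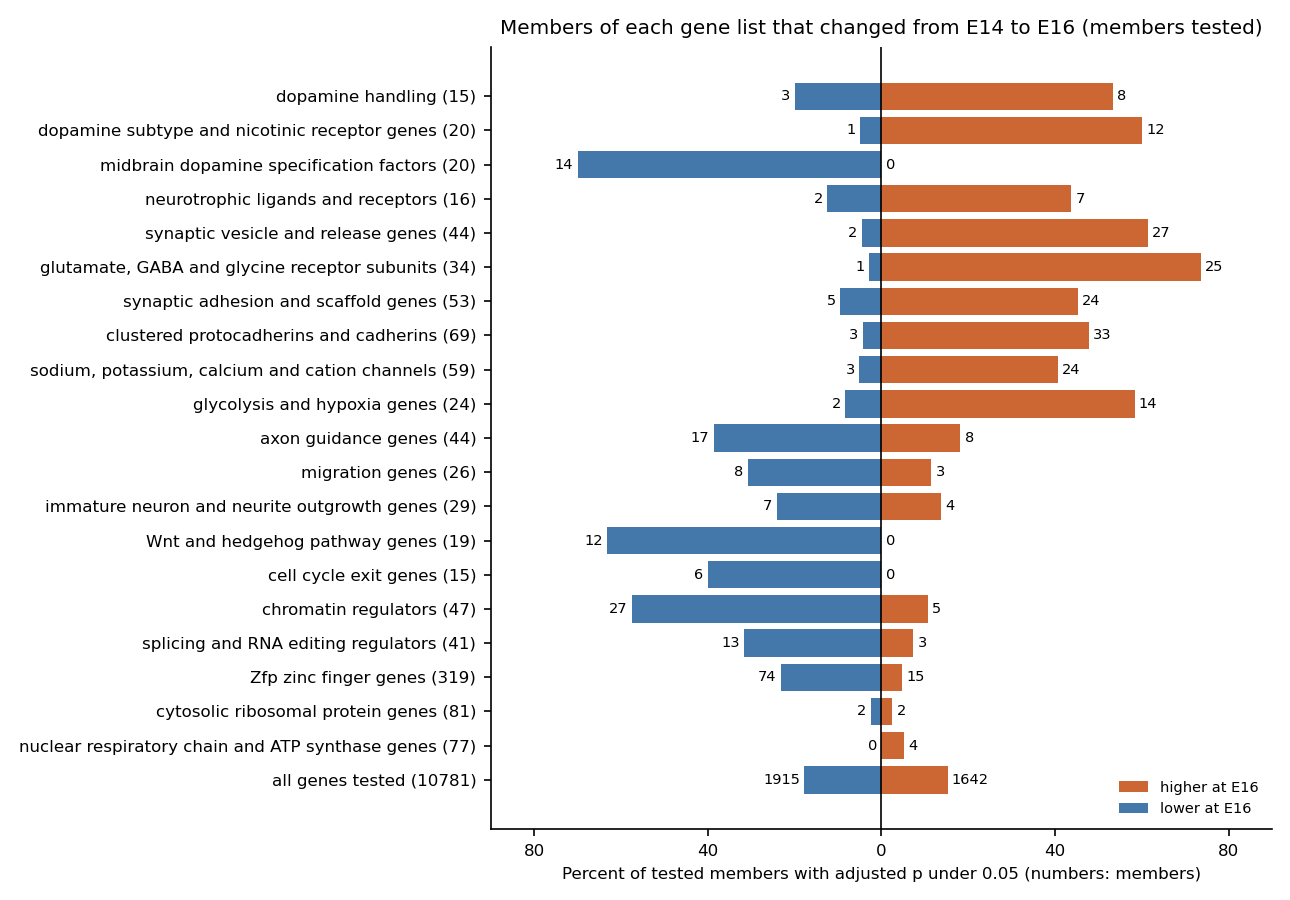
Share of the tested members of 20 gene lists, and of all genes, with an adjusted p under 0.05 by limma, higher at E16 to the right and lower to the left, with the number of members at each bar and the number tested in brackets. Transmitter receptor subunits (25 of 34 higher) and specification factors (14 of 20 lower) lie at the ends, against 15.2% higher and 17.8% lower among all genes.

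The remaining lists gave mixed counts. Of 15 radial glia and progenitor genes 1 rose and 6 fell, of 18 collagens and laminins 7 rose and 3 fell, of 11 immediate early and dissociation stress genes 3 rose and 1 fell, of 13 clock genes 2 rose and 1 fell, and of 6 genes of the Lin28 axis 0 rose and 1 fell. Without E14 replicate 3, 1 collagen or laminin gene and 0 stress genes fell and 1 clock gene rose. Without E16 replicate 1, 0 stress genes fell, 2 progenitor genes rose and 1 gene of the Lin28 axis rose. Of 49 genes known as circRNA hosts 7 rose and 17 fell. Of 14 neuropeptide and granule genes 6 rose and 3 fell. Vgf rose by 1.50 (SE 0.21), from 119, 154 and 141 normalized reads to 282, 596 and 354, and the granins Scg2 and Chgb moved apart, by 0.71 (SE 0.11) and -0.74 (SE 0.14). Of 29 long non-coding RNA genes 5 rose and 13 fell, and the 5 became 3 without E14 replicate 2 or E16 replicate 1. H19, imprinted and expressed from the maternal copy, went from 537, 532 and 732 to 192, 251 and 289, a log2 fold change of -1.30 (SE 0.18). Malat1, a nuclear RNA, fell by 0.66 (SE 0.15), but its log2 fold change was 0 by quantile normalization, which sets values by rank, since Malat1 ranked first in 2 libraries and second in 1 at each age. Of 40 imprinted genes 12 rose and 11 fell, among them Zim1 (1.07, SE 0.11) and the Notch-related Dlk1 (-1.05, SE 0.11).

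Beyond the lists, the 15 largest rises among called genes averaging 200 normalized reads or more, without overlap of libraries, included Lmo7 (1.97, SE 0.17), Nrip3 (1.93, SE 0.15), the membrane protein Mal2 (1.92, SE 0.14), the cationic amino acid transporter Slc7a3 (1.88, SE 0.17), the ETS factor Etv5 (1.87, SE 0.21), Caln1 (1.82, SE 0.20) and the glycine receptor subunit Glra3 (1.77, SE 0.19), all as log2 fold changes. The 15 largest falls included Pdzrn3, a ubiquitin ligase, which went from 4723, 5337 and 5529 normalized reads to 1365, 1103 and 1387 (log2 fold change -2.02, SE 0.14, adjusted p = 1.01e-06). St18, a zinc finger factor, fell by 2.02 (SE 0.24), the urea cycle enzyme Cps1 by 1.57 (SE 0.21), the integrin Itga11 by 1.50 (SE 0.13) and the heparan sulfate proteoglycan Gpc2 by 1.35 (SE 0.16). The signal Bmp7 fell by 1.45 (SE 0.18). The lack of overlap between their E14 and E16 libraries was a condition of the choice of these genes.

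The genes that rose were longer. Their median genomic span was 45.2 kb against 29.0 kb for the genes that fell, 23.7 kb for those not called and 26.9 kb for all 10775 with a position, and 31.8% of them spanned over 100 kb against 14.6% of those that fell. Their median exonic length, 5.04 kb, was below the 5.91 kb of those that fell. The 2 groups also differed in where they were read at E14. In the separately sorted libraries, 28.2% of the risers were higher in GFP- cells and 16.9% higher in GFP+ cells, while 27.2% of the genes that fell were higher in GFP+ and 7.33% in GFP- cells. Among all 10699 genes found in both tables these shares were 12.6% higher in GFP- and 16.8% higher in GFP+ cells. Of the 222 that rose at least 2-fold, 44.7% of the 219 with a sort value were higher in GFP- cells at E14. These are descriptions of genes of the same libraries, with no test.

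Not every change went on to birth. The step from E16 to P0 differed from that from E14 to E16 for 1468 genes (13.6%), a count that became 976 without E14 replicate 2, 625 without E16 replicate 3 and 887 without P0 replicate 2. The 2 steps share the E16 libraries and cover unequal spans of time, so values are given side by side. Slc18a2 fell by 0.35 up to E16 and rose by 0.68 after it (adjusted p of the difference 0.00111). Igf1, which rose by 1.60, had a log2 change of 0.05 after E16 (adjusted p of the difference 0.00146), and Epha6 went from 1.35 to -0.06 (0.00146). Aldh1a1 rose by 2.07 and then by 0.97, to 167996 normalized reads at P0 (0.00463). For Calb1 the steps were 1.07 and 1.15 (0.776), for Sox11 -1.04 and -1.12 (0.763) and for Ebf2 -1.14 and -1.30 (0.702), and no difference between steps was detected. The long non-coding RNA Miat fell by 0.66 and then rose by 1.32 (1.67e-05).

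No circRNA passed the test. Of 1630 tested, 0 (0%) had an adjusted p under 0.05 by limma and 0 in the authors' deposited table, while 83 (5.09%) had an unadjusted p under 0.05. The E16 libraries lay above all E14 libraries for 6.50% of circRNAs and below all of them for 7.42%. The precision depended on the number of reads: the median SE of the log2 fold change was 1.02 for the 837 circRNAs with a mean under 5 normalized reads and 0.19 for the 26 with more than 100. For circRNAs at the lower level, a 2-fold change was of the size of its error and not detectable at this depth. The table gives no circRNA a coordinate, so circles are named by their number in the table and their host gene.

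Among the 10 most abundant circRNAs, 4 had E16 libraries wholly below those of E14 and none wholly above. Among all circRNAs tested these shares were 7.42% below and 6.50% above. Circ_00001_Tulp4, the most abundant, stood at 671, 613 and 693 normalized reads at E14 and at 665, 548 and 696 at E16 (log2 fold change -0.06, SE 0.12, adjusted p = 0.967). Circ_00004_Rmst, from the long non-coding RNA gene Rmst (chromosome 10, 92071037 to 92165170), stood at 373, 376 and 351 at E14 and at 229, 237 and 248 at E16. It had the smallest p of the circRNAs with a lower level, with a log2 fold change of -0.62 (SE 0.15, unadjusted p = 0.000617, adjusted p = 0.503). Circ_00005_Ttc3 went from 276, 290 and 281 to 220, 222 and 208 (-0.38, SE 0.14), circ_00007_Ezh2 from 273, 272 and 293 to 224, 167 and 191 (-0.53, SE 0.20) and circ_00010_Elf2 from 234, 206 and 205 to 187, 113 and 145 (-0.56, SE 0.19), all with an adjusted p of 0.71 or above.

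Rmst itself stood at 9072, 8204 and 9237 normalized reads at E14 and at 6825, 5097 and 5520 at E16. It fell by 0.61 (SE 0.19, adjusted p = 0.0204), a call lost without E14 replicate 1 or 3 or E16 replicate 2 or 3, with an adjusted p of up to 0.0674. Exonic reads of circles and of linear RNA both add to the gene value. Of the 9 Rmst circRNAs tested, 4 had E16 libraries wholly below those of E14 and 5 overlapped, against 7.42% wholly below among all circRNAs tested. Circ_00639_Rmst, 1 of the 4, averaged 6.41 normalized reads over the E14 and E16 libraries (SE of its log2 fold change 0.98). The log2 fold changes of the 9 ran from -1.19 for circ_00623_Rmst (SE 1.02) to -0.03 for circ_00563_Rmst (SE 0.84). The ratio of circ_00004_Rmst to its host had a log2 change of -0.01 (SE 0.16, unadjusted p = 0.962 by limma). In this ratio circRNA and gene values were each scaled on their own. Scaling circRNA reads by the gene table moved the median log2 fold change of the circRNAs tested from -0.03 to -0.20.

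**Figure D5:**
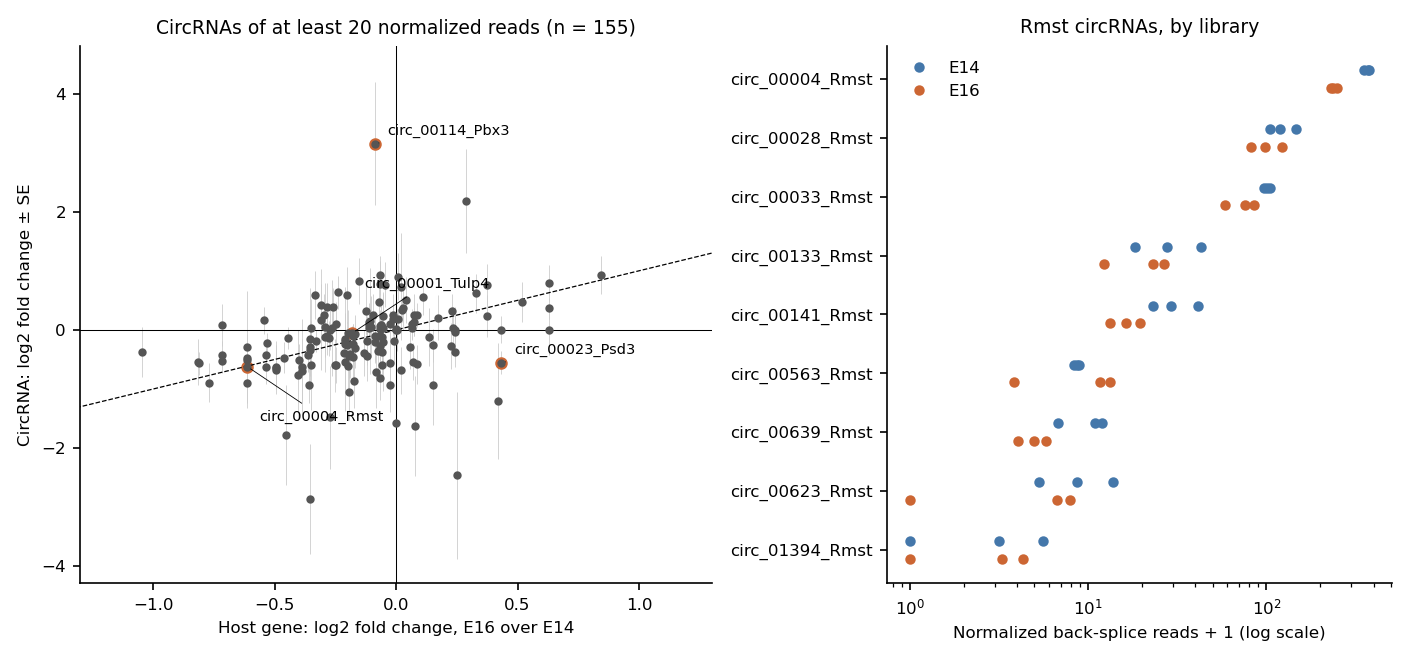
Left, log2 fold change of E16 over E14 of circRNAs averaging 20 normalized reads or more, against that of the host gene. Of the 161 at this level, the 155 with a host in the gene table are shown. Bars give the SE, and the dashed line equal change when circRNA and gene values are each scaled on their own. Right, normalized back-splice reads plus 1 of the 9 Rmst circRNAs in each library on a log axis; circ_00004_Rmst has its 3 E16 libraries (229 to 248) below its 3 E14 libraries (351 to 376).

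The ratio of circRNA to host could be formed for 1558 circRNAs of 939 hosts. Of these, 0 (0%) passed the test, with 62 (3.98%) at an unadjusted p under 0.05. Circular and gene values were each scaled on their own, and the ratio was not repeated with a common scaling. The 223 circRNAs of hosts that rose had a median log2 fold change of 0.46, the 355 of hosts that fell one of -0.26, and the 980 of hosts not called one of -0.03. The 223 came from 140 hosts and the 355 from 204, with 66.8% and 34.9% above 0 and a median SE of 0.94 and 0.91 per circRNA. Hosts were called in the same libraries and their values include exonic reads of circles, so the 2 are not independent. Circ_00191_Trpc6 had the smallest p of all circRNAs. It stood at 0, 2.16 and 2.74 normalized reads at E14 and at 10.7, 27.7 and 11.5 at E16 (log2 fold change 2.82, SE 0.58, adjusted p = 0.197), beside the rise of 2.02 of its host. Circ_00023_Psd3 had the smallest p for the ratio: it went from 135, 137 and 141 to 106, 88.8 and 86.4 while its host rose by 0.43, a log2 change of the ratio of -0.99 (SE 0.22, unadjusted p = 0.000241, adjusted p = 0.376). Circ_00114_Pbx3 stood at 0, 0 and 58.4 at E14 and at 34.0, 20.04 and 55.8 at E16 (3.15, SE 1.04, adjusted p = 0.71). Without E14 replicate 3 its log2 fold change became 5.12 (adjusted p = 0.000337) and its ratio to the host also passed, so that 1 library decided both calls.

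Back-splice reads over all circRNAs came to 1217, 1167 and 1382 per 1000000 gene reads at E14 and to 1176, 885 and 1093 at E16, when reads were recovered from the spacing of the deposited values. The means were 1256 ± 113 and 1051 ± 149 (SD, n = 3), a difference of -16.3% (exact permutation test, two-sided, p = 0.2; the smallest p that 3 against 3 allows is 0.1). As the 2 tables were deposited, each with its own scaling, the ratio of their sums differed by -2.91% (exact permutation p = 0.4). Scaling circRNA reads by the gene table moved the median log2 fold change of the circRNAs from -0.03 to -0.20. The circRNA changes therefore hold relative to the mass of circRNAs and not to gene reads. Ratios of circRNA to host and their tests carry the same limit.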

How the data were processed

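RNA of FACS-purified Pitx3-GFP cells was extracted with the miRNeasy micro kit, depleted of ribosomal RNA with riboZero and made into libraries with ScriptSeq v2, per the labels' protocols. Trim Galore, TopHat2 and DESeq2 are listed, without versions, with GRCm38 and mm10, per the submitters' processing notes. Which programs counted reads and called circRNAs, and whether strand was used, is not given in the sources used here, and overlapping genes on opposite strands cannot be told apart. The authors deposited normalized reads, treated as a signal, in which the values of each library are whole multiples of 1 step within 0.1 (100% of values), and this step gave the depths printed. The tables also hold log2 fold changes and p-values from a test by the authors, per the file headers.

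A two-sided limma-trend test of log2(value + 1), from 1 model of the 9 time series libraries, was run for genes (a minimum mean of 5 removed 0) and for circRNAs, in limma 3.58.1 under R 4.3.3, with Benjamini-Hochberg adjustment. The pseudocount understates changes of low features. The sorted libraries were fitted alone. Their columns could be matched to groups but not to numbered samples, and their reads, 100% whole, were also tested with edgeR 4.0.16 after the data were seen. Scripts were tested on simulated data. Same-numbered E14 and E16 replicates deviated together at r = 0.0668, 0.183 and -0.113, and the numbers were not used to pair libraries. With so few libraries per age, low values do not exclude a shared litter or batch.

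Named genes were Pitx3, Th, Slc6a3, Nr4a2 and Rmst, the 15 largest changes per direction averaging 200 or more without overlap of libraries, and up to 4 members per direction of each of 44 lists; other genes named were chosen after their values were seen. Members and lists were chosen with earlier results of these data known. Results of some genes are not reported here.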

Additional observations from a re-analysis of the deposited data

How the results depend on the processing

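Among the alternatives tried for the count of genes from E14 to E16 (pseudocount 5, the 6 libraries alone, quantile normalization, TMM factors, a mean of at least 500, the authors' deposited table and each replicate left out), the counts moved by less than 1.5 times, from 1140 to 1870 higher and from 1354 to 2008 lower. TMM factors gave 1870 higher and 1601 lower and so turned the larger share from lower to higher genes. Array quality weights gave 2858 higher and 3364 lower, and the cause was not tested. Leaving out 1 replicate gave 1347 to 1625 higher, 1354 to 1836 lower and 625 to 1801 genes with different steps. It gave 0 to 1 circRNA higher and 0 to 1 circRNA called for its ratio to the host, the 1 being circ_00114_Pbx3 in both. A replicate block gave 1688 higher, 1932 lower, 1559 genes with different steps, 0 circRNAs and 0 ratios. Whether the numbers pair the libraries is not stated. The summed circRNA ratio differed by -5.14% to -1.16% when 1 replicate was left out. Of the 225 genes picked by the naming rule that were called, 181 kept direction and call in every alternative in which they were tested. With a mean of at least 500, 168 of the 227 genes picked by the rule were tested. Genes named outside the rule were not followed singly in the alternatives. By array weights Th had a log2 fold change of -0.17 and passed the test as lower at E16. Values that changed sign were those of mt-Co1 (0.0029 without E14 replicate 1, 0.0066 without E16 replicate 2, 0.052 by array weights and down to -0.19 without E16 replicate 3) and Th (0.032 without E16 replicate 1, down to -0.24 without E16 replicate 2). The same held for circ_00563_Rmst (0.027 with pseudocount 5, -0.36 without E16 replicate 3, 0.53 without E16 replicate 2, 0.18 in the authors' deposited table), circ_01394_Rmst (0.040, 0.45 and 0.54 without E14 replicate 2, E14 replicate 3 and E16 replicate 2, down to -0.79 without E14 replicate 1), circ_00001_Tulp4 (-0.12 to 0.048 on leaving out 1 replicate), circ_00003_Rims2 (-0.17 to 0.0055 likewise) and circ_00009_Nsd2 (-0.23 to 0.17 likewise). Scaling circRNA reads to the gene table turned circ_00009_Nsd2 to -0.20, circ_00002_Hdgfl3 to -0.13, circ_00006_Gigyf2 to -0.034, circ_00008_Nlrp5-ps to -0.030 and circ_00029_Ndst3 to -0.054. In the sort, edgeR on recovered reads, added after the data were seen, gave 2154 genes higher in GFP+ and 3387 higher in GFP- cells, against 2313 and 3286 by limma. The precision of circRNA values was lower at lower levels, with 837 of 1630 under a mean of 5 normalized reads, while the 26 with more than 100 also gave 0 calls, and the part of depth in the count was not tested.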
